A study of Mus musculus with 4 samples.

Results

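The 6 GATA transcription factor genes of the mouse, Gata1 to Gata6, were followed by RNA-seq in 3 cultures of mouse embryonic stem cells (mESCs) and in 1 culture of trophoblast stem cells (TSCs). The members were chosen by gene name, whatever their level, and are 6 of the 37620 annotated genes that were counted. Of these 6, 5 reached 1 CPM (read counts over 1000000 counts of the scaled library) in at least 1 sample and entered the counts of genes below, as did 14263 genes in all, and Gata5 did not.

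The 3 mESC samples were R1 cells at day 2 in serum-containing medium without feeder cells. All of them received 3 µM CHIR99021, which inhibits GSK3 and so activates Wnt signaling, and 1 µM PD0325901, a MEK inhibitor, and none received leukemia inhibitory factor (LIF). The sample with only these compounds is called 2i-L. In 2iJ, 2 µM of a JAK inhibitor was added, which blocks the pathway that LIF uses. In 2iJ+B-A, the 2iJ medium also held 10 ng/ml bone morphogenetic protein 4 (BMP4) together with 10 µM ALK5 inhibitor, a compound that shuts off Activin and Nodal signals. Since both were added together, their effects cannot be told apart. TSC denotes F4 trophoblast stem cells, labelled day 2 and with no treatment named. They differ from the mESCs in line and medium as well as in cell type, and these cannot be told apart. Each group is 1 sample of 1 cell line, so no difference below has a replicate check, no p-value was computed, and every interval covers counting error only. The 4 comparisons made (2iJ over 2i-L, 2iJ+B-A over 2iJ, TSC over 2iJ and TSC over 2iJ+B-A) share samples with each other, so they do not support one another.

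GATA factors are DNA-binding proteins with a pair of zinc fingers that recognize the core letters GATA. Gata1, Gata2 and Gata3 are best known from blood, where Gata1 drives red cell and megakaryocyte genes, Gata2 maintains stem and progenitor cells and Gata3 directs T cells. Gata2 and Gata3 also act in trophoblast, the lineage that forms the placenta. Gata4, Gata5 and Gata6 are best known from the heart and gut, and Gata4 and Gata6 from primitive endoderm, the layer that the early embryo sets aside beside the pluripotent epiblast. The comparisons ask which of these genes differ when JAK signaling is blocked in 2i, when BMP4 is added with the ALK5 inhibitor, and between either mESC state and established TSCs.

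Read pairs assigned to genes numbered 33913984 to 36964392 per sample, 82.2 to 83.6% of the pairs counted, so that 3 counts corresponded to 0.0799 to 0.0902 CPM. All 6 pluripotency genes examined (Pou5f1, Nanog, Sox2, Zfp42, Klf4 and Esrrb) were present in the 3 mESC samples, where they summed to 3480, 3020 and 2150 CPM in 2i-L, 2iJ and 2iJ+B-A, against 534 CPM in TSC. Pou5f1 was at 1.34 CPM in TSC and at 658 to 899 CPM in the mESC samples. The 10 TSC genes examined (Cdx2, Eomes, Elf5, Tfap2c, Tead4, Ets2, Hand1, Fgfr2, Krt8 and Krt18) summed to 4030 CPM in TSC and to 412, 476 and 1390 CPM in 2i-L, 2iJ and 2iJ+B-A, and Elf5 was at 298 CPM in TSC and at 0.133 CPM or less in the others. Neither label was contradicted by these markers.

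The genome sequence upstream of Gata1, Gata2 and Gata3 is given line by line here. In TSC these 3 held the largest shares of the GATA message per kilobase of exon (21.4%, 33.8% and 35.1%). In 2iJ+B-A Gata2 held 88.7% and Gata3 6.03%, but Gata1 only 1.17%, below Gata6 (2.75%) and Gata4 (1.26%). Gata1, Gata2 and Gata3 were all higher in 2iJ+B-A than in 2iJ and higher in TSC than in 2iJ, though not alike in the other comparisons. Gata4 and Gata6 were higher in both of these comparisons too, but no promoter was read for them. Each line gives the 250 bases before an annotated RefSeq start, 5′ to 3′ on the strand of the gene (build GRCm38.p6, chrX:7967911-7968160 minus strand for Gata1, chr6:88193641-88193890 and chr6:88198414-88198663 plus strand for the distal and proximal starts of Gata2, chr2:9878601-9878850 minus strand for Gata3). Capitals mark GGCGCC, a GC-rich sequence known from promoters that answer to BMP.
Gata1: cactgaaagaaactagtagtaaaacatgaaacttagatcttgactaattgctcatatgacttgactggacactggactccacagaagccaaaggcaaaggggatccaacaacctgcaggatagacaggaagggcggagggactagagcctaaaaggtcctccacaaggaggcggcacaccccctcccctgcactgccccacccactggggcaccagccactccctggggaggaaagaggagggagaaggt
Gata2, distal start: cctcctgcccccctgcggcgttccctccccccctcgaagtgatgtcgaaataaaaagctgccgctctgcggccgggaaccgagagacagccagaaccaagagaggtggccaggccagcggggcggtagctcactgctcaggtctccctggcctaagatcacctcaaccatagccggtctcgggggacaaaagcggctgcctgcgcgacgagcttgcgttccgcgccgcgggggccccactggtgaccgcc
Gata2, proximal start: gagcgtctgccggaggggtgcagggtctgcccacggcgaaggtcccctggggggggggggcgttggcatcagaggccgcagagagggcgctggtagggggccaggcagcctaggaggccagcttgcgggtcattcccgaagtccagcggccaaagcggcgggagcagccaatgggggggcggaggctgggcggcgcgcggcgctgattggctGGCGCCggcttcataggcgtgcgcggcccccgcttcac
Gata3: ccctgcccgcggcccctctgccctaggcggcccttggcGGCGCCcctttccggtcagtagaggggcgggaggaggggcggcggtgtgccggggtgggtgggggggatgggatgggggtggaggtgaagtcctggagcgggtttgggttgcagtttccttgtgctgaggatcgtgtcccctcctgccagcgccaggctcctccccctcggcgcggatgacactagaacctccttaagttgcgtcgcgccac

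Over windows of 300 bases, running to 50 bases after the start, GGCGCC (which reads the same on both strands) was found 2 times at the proximal Gata2 start, with first bases 38 before and 22 after it, and 2 times at Gata3, 212 before and 26 after. It was not found at Gata1, at the distal Gata2 start or at Gata5, and 11.9% of all 32851 promoters of the same length hold it. The GATA site itself (the core GATA with A or T before it and A or G after it, on either strand, with no overlap with GGCGCC) was found 1 time, 36 bases after the Gata3 start, against 29.8% of promoters that hold at least 1. Promoters were read for 4 of the 6 members, and not for Gata4 or Gata6. The windows were GC-rich, from 57.3% at Gata1 to 73.7% at the proximal Gata2 start. A match describes the letters only, and the counts per gene do not separate the Gata2 starts.

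Gata2 was the most abundant member in all 3 mESC samples. The gene (ENSMUSG00000015053, NCBIM37 6:88143885-88157024, plus strand) had 9.92 CPM in 2i-L (330 counts), 23.1 CPM in 2iJ (792 counts), 236 CPM in 2iJ+B-A (8880 counts) and 84.3 CPM in TSC (2959 counts). The 4 samples are thus ordered 2i-L, 2iJ, TSC and 2iJ+B-A, with no overlap of their counting intervals. The ratio was 2.32-fold (95% counting interval 2.04 to 2.65) for 2iJ over 2i-L and 10.2-fold (9.53 to 11) for 2iJ+B-A over 2iJ. TSC held 3.65-fold (3.38 to 3.96) the level of 2iJ, yet was 2.80-fold (2.69 to 2.92) lower than 2iJ+B-A. The mESCs given BMP4 with the ALK5 inhibitor thus exceeded the established TSCs in this gene.

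Gata3, which acts beside Cdx2 in trophectoderm, took another order. The gene (ENSMUSG00000015619, NCBIM37 2:9778705-9811661, minus strand) had 2.68 CPM in 2i-L (89 counts), 7.43 CPM in 2iJ (255 counts), 19.1 CPM in 2iJ+B-A (717 counts) and 104 CPM in TSC (3645 counts). Each sample lay above the one before it, beyond counting error. The ratio was 2.77-fold (2.17 to 3.57) for 2iJ over 2i-L, 2.57-fold (2.22 to 2.98) for 2iJ+B-A over 2iJ, and 5.44-fold (5.02 to 5.90) for TSC over 2iJ+B-A, which left 2iJ+B-A at 18.4% of the TSC level. An exon of Gata3 is overlapped from the opposite strand by the noncoding gene Gm13256, which had at most 1 count of its own in any sample under the stranded counting used here. An exon is also overlapped on the same strand by 9230102O04Rik, which had 0, 2, 1 and 2 counts in 2i-L, 2iJ, 2iJ+B-A and TSC, and read pairs that fit both genes are counted for neither.

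Gata1 was low in all 3 mESC samples and far higher in TSC. The gene (ENSMUSG00000031162, NCBIM37 X:7536386-7555197, minus strand) had 0.451 CPM in 2i-L (15 counts), 0.408 CPM in 2iJ (14 counts), 2.26 CPM in 2iJ+B-A (85 counts) and 38.8 CPM in TSC (1362 counts). 2i-L and 2iJ could not be told apart, with a ratio of 0.904 (0.404 to 2.01). 2iJ+B-A was 5.55-fold (3.13 to 10.6) above 2iJ, and TSC was 95.2-fold (56.5 to 175) above 2iJ and 17.1-fold (13.8 to 21.6) above 2iJ+B-A. At this locus 12, 7 and 22 read pairs lay on the opposite strand in 2i-L, 2iJ and 2iJ+B-A, or 80.0%, 50% and 25.9% of the Gata1 counts, against 1.84% in TSC, and their part in the low mESC values was not tested. Hdac6, a deacetylase gene that neighbours Gata1 on the same strand, also had most counts in TSC (14533, against 2823 to 3575 in the mESC samples).

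Gata4 followed the order of Gata1. This gene (ENSMUSG00000021944, NCBIM37 14:63817759-63890529, minus strand) had 1.86 CPM in 2i-L (62 counts), 1.69 CPM in 2iJ (58 counts), 3.91 CPM in 2iJ+B-A (147 counts) and 23.5 CPM in TSC (824 counts). 2i-L and 2iJ could not be told apart (0.906, 0.622 to 1.32), 2iJ+B-A was 2.32-fold (1.70 to 3.20) above 2iJ, and TSC was 13.9-fold (10.6 to 18.5) above 2iJ and 6.0-fold (5.03 to 7.20) above 2iJ+B-A. So the endoderm and heart factor Gata4 was highest in the trophoblast line.

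Gata6, the partner of Gata4 in primitive endoderm, was instead highest in 2iJ+B-A, as Gata2 was. The gene (ENSMUSG00000005836, NCBIM37 18:11052508-11085633, plus strand) had 0.722 CPM in 2i-L (24 counts), 0.757 CPM in 2iJ (26 counts), 6.97 CPM in 2iJ+B-A (262 counts) and 3.87 CPM in TSC (136 counts). The ratio of 2iJ over 2i-L was 1.05 (0.579 to 1.91), which leaves the pair unresolved. 2iJ+B-A stood 9.21-fold (6.15 to 14.4) above 2iJ, and TSC 5.12-fold (3.35 to 8.11) above 2iJ and 1.8-fold (1.46 to 2.23) below 2iJ+B-A.

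Gata5, a heart and gut factor, had at most 10 counts in any sample, against the floor of 3 counts. The gene (ENSMUSG00000015627, NCBIM37 2:180059838-180069404, minus strand) had 10 counts in 2iJ+B-A (0.266 CPM), 4 counts in TSC (0.114 CPM), 1 count in 2i-L and 0 in 2iJ, where the floor of 3 counts is 0.0874 CPM. With 2iJ set at that floor, 2iJ+B-A was 3.05-fold higher. The counting interval of the ratio, which also takes in the error of the 10 counts, starts at 2.05. The 10 counts of 2iJ+B-A and the 4 of TSC could not be told apart, the ratio of TSC to 2iJ+B-A being 0.428 (0.0980 to 1.48).

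**Figure D1:**
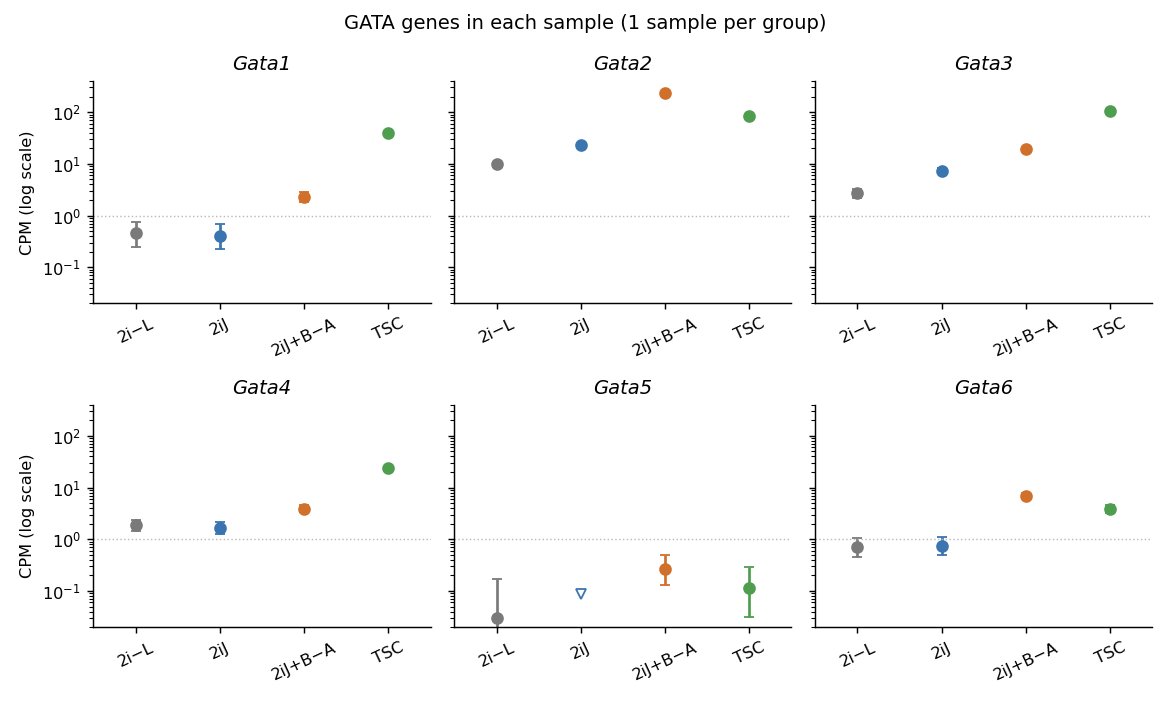
CPM of each GATA gene (log axis) in the 4 samples, 1 point per sample, with 95% Poisson counting intervals and a dotted line at 1 CPM. The open triangle marks Gata5 in 2iJ, which had 0 counts, at the CPM of 3 counts, and the lower bar of Gata5 in 2i-L runs below the axis. Gata2 and Gata6 are highest in 2iJ+B-A (236 and 6.97 CPM), and Gata1, Gata3 and Gata4 in TSC (38.8, 104 and 23.5 CPM).

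These values come from whole cultures, in which fewer cells expressing a gene and less RNA per cell cannot be told apart. The members share little sequence at the length of a read. The longest identical run shared by the transcripts of any pair was 26 bases (Gata4 and Gata5), against reads of 126 bases, and no stretch of the longest transcript of any member aligned elsewhere in NCBIM37.

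Levels of different genes were compared per length, as CPM per kilobase of annotated exon. On that scale the 6 genes had sums of 79.5 in 2iJ+B-A, 74.4 in TSC, 9.59 in 2iJ and 4.53 in 2i-L. The 2 highest sums were thus alike in size but not in make-up. Gata2 supplied 88.7% of the sum in 2iJ+B-A, with 6.03% from Gata3, 2.75% from Gata6, 1.26% from Gata4 and 1.17% from Gata1. In TSC it supplied 33.8%, beside 35.1% from Gata3, 21.4% from Gata1, 8.07% from Gata4 and 1.63% from Gata6. The mESC samples without BMP4 and the ALK5 inhibitor resembled 2iJ+B-A in being led by Gata2, at 65.4% in 2i-L and 71.8% in 2iJ. Gata3 was next in them, at 14.8% and 19.5%.

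**Figure D2:**
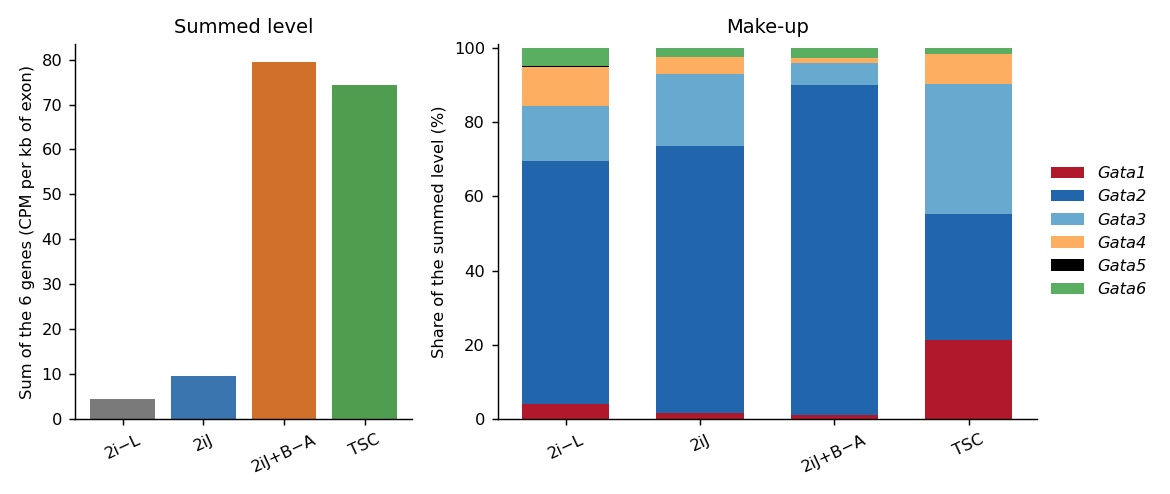
Left, the summed level of the 6 GATA genes in CPM per kilobase of annotated exon in each sample. Right, the share of that sum from each gene in percent, with Gata2 at 88.7% in 2iJ+B-A and at 33.8% in TSC, where Gata3 holds 35.1% and Gata1 21.4%.

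The order of the members within each sample followed from the same levels. Gata2 exceeded Gata3 per length 4.40-fold (3.47 to 5.63) in 2i-L, 3.69-fold (3.20 to 4.26) in 2iJ and 14.7-fold (13.6 to 15.9) in 2iJ+B-A. In TSC the ratio was 0.964 (0.918 to 1.01), so the pair could not be ordered. With the longest transcript as the length of each gene it was 0.805 (0.767 to 0.846) there. Gata4 exceeded Gata6 2.11-fold (1.30 to 3.54) in 2i-L, 1.82-fold (1.13 to 3.02) in 2iJ and 4.95-fold (4.12 to 5.98) in TSC, whereas in 2iJ+B-A the ratio was 0.458 (0.372 to 0.563) and Gata6 was the higher. Other neighbours in the order that counting error did not separate were Gata6 and Gata1 in 2i-L (1.22, 0.615 to 2.5) and in 2iJ (1.42, 0.714 to 2.94), and Gata4 and Gata1 in 2iJ+B-A (1.08, 0.820 to 1.43).

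Against all genes, a gene was called where the log2 ratio of (CPM + 0.5) was at least 1 in size, that is 2-fold on that scale. In 2iJ over 2i-L, Gata2 (log2 1.18) and Gata3 (1.32) were called higher and no member lower, where 1.23% of the 14263 genes were called higher and 0.918% lower. Gata1 (-0.07), Gata4 (-0.11) and Gata6 (0.04) were not called. The median over the 5 members at 1 CPM or more was 0.04, and that over all genes 0.00.

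In 2iJ+B-A over 2iJ, 5 of the 6 members were called higher (Gata5 was below the 1 CPM needed for a call), where 5.81% of genes were called higher and 3.17% lower. Their log2 ratios were 3.33 for Gata2, 2.57 for Gata6, 1.61 for Gata1, 1.31 for Gata3 and 1.01 for Gata4, with a median of 1.61 against 0.00 over all genes. Gata1 and Gata6 were at 0.408 and 0.757 CPM in 2iJ, and under 1 CPM in 2i-L too. They passed the filter only through 2iJ+B-A and TSC, where they were higher, so the filter bears on this count and median. Gata4 stood at the edge of the call, with a counting interval of 0.64 to 1.38, and was not called with 1 CPM added in place of 0.5 (log2 0.87).

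In TSC over 2iJ these 5 genes were also called higher, where 19.4% of genes were called higher and 17.6% lower. Here too Gata1 and Gata6 had passed the filter only through TSC and 2iJ+B-A. The log2 ratios ran from 1.8 for Gata6 and 1.85 for Gata2 through 3.45 for Gata4 and 3.72 for Gata3 to 5.44 for Gata1, with a median of 3.45 against 0.00 over all genes. In TSC over 2iJ+B-A, 16.4% of genes were called higher and 16.2% lower. Gata1 (3.83), Gata4 (2.44) and Gata3 (2.41) were among the higher and Gata2 (-1.48) among the lower, and Gata6 (-0.77) was not called. The members therefore split in this comparison, and a median over them (2.41) describes only part of the family.

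**Figure D3:**
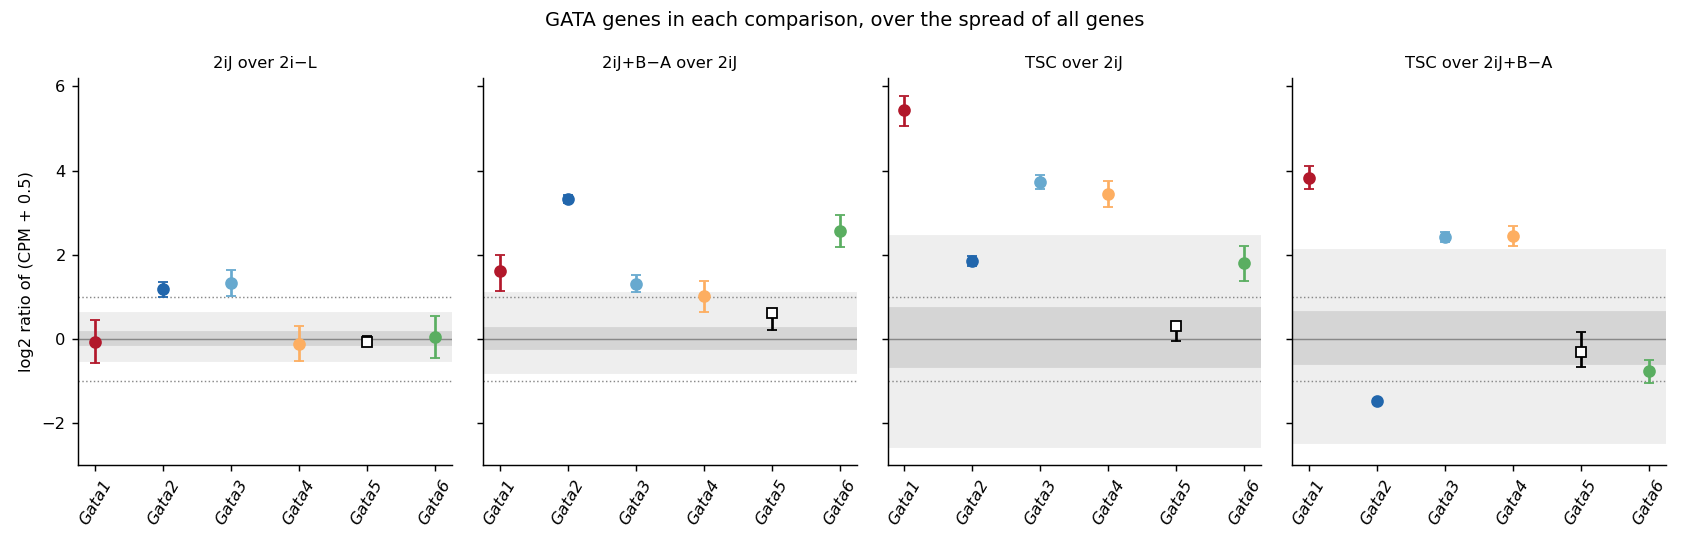
log2 ratio of (CPM + 0.5) for each GATA gene in the 4 comparisons, with 95% counting intervals. The dark and light bands hold the 25th to 75th and the 5th to 95th percentiles of all genes at 1 CPM or more in 1 sample, dotted lines mark a log2 ratio of 1 in size, and the open square is Gata5, which is below that level. The 5 other members lie at 1.01 or above in 2iJ+B-A over 2iJ, and Gata2 lies at -1.48 in TSC over 2iJ+B-A.

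GATA factors work with partner proteins, and 11 of these were examined, of which 6 reached 1 CPM in a sample. None of the 6 was called in 2iJ over 2i-L, 2 were higher and 1 lower in 2iJ+B-A over 2iJ, and 3 were higher and 2 lower in TSC over 2iJ. Over all genes, the shares called higher and lower were 5.81% and 3.17% in 2iJ+B-A over 2iJ and 19.4% and 17.6% in TSC over 2iJ. The same shares stand beside the counts of the lists below, which are short and describe their named genes only. Lmo2 reached 1 CPM in TSC alone and Zfpm2 in 2iJ alone. Zfpm1, which encodes FOG1, the cofactor that binds the zinc finger of Gata1, had 6.56, 8.62, 32.5 and 197 CPM in 2i-L, 2iJ, 2iJ+B-A and TSC, and so was highest in TSC. Runx1, a blood transcription factor that cooperates with Gata1 and Gata2, had 0.571, 0.670, 2.64 and 14.8 CPM in the same order. Zfpm2 (FOG2), the cofactor of Gata4 in the heart, went the other way, with 0.722, 1.14, 0.293 and 0 CPM.

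Of the remaining partners, Ldb1, Lmo2, Tcf3, Tal1 and Lyl1 belong to the complex that joins GATA factors to helix-loop-helix proteins in blood. Ldb1, its scaffold, was present throughout at 298, 248, 197 and 188 CPM and was not called in any comparison. Lmo2, the bridging protein, had 0.361, 0.349, 0.399 and 1.94 CPM, and was called higher in TSC over 2iJ (log2 1.52). Tcf3, the helix-loop-helix protein E2A, was lower in TSC, at 52.2 CPM against 116 to 140 CPM in the mESC samples (log2 -1.42 over 2iJ). The other 5 partners, Tal1, Lyl1, Fli1, Spi1 and Klf1, were below 1 CPM in all 4 samples, with at most 11 counts.

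Of 9 further genes whose products carry a GATA-type zinc finger, all reached 1 CPM. None was called in 2iJ over 2i-L or in 2iJ+B-A over 2iJ. Their median log2 ratio in 2iJ+B-A over 2iJ was -0.02, against 1.61 for the 5 GATA members at 1 CPM or more. Of these members, Gata1 and Gata6 passed the filter only through 2iJ+B-A and TSC, so the filter bears on that contrast. In TSC over 2iJ, Mta3, a subunit of the NuRD chromatin complex, was called higher (120 against 263 CPM, log2 1.13). Trps1, a repressor that binds GATA sites, was called lower (18.2 against 0.142 CPM, log2 -4.86), as was Zglp1, a germ cell factor (1.25 against 0.313 CPM, log2 -1.11).

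Gene lists for the lineages in which the members are known were then read in the same comparisons. Of the 10 TSC genes, 5 were called higher in 2iJ+B-A over 2iJ, led by Hand1 (1.31 to 104 CPM, log2 5.84), Krt18 (105 to 521 CPM, 2.31), Cdx2 (6.70 to 33.6 CPM, 2.24) and Krt8 (134 to 553 CPM, 2.04), and Eomes was called lower (10.7 to 2.74 CPM, -1.78). In TSC over 2iJ all 10 were called higher. Of 9 genes of differentiated trophoblast, 6 reached 1 CPM and 3 were higher in 2iJ+B-A over 2iJ: Plac1 (log2 3.33), Ascl2 (2.99) and Gcm1 (2.22). Ascl2, a factor of the spongiotrophoblast, had 1.23, 2.42, 22.7 and 13.3 CPM, with 2iJ+B-A highest, as for Gata2. Gcm1, which drives syncytiotrophoblast formation, had 28.0 CPM in 2iJ+B-A but 0.399 CPM in TSC, and the placental hormone gene Prl3d1 had 0 counts in every mESC sample and 55 in TSC.

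Of 18 primitive endoderm genes, 15 reached 1 CPM. The list summed to 1000, 1170, 1530 and 3020 CPM in 2i-L, 2iJ, 2iJ+B-A and TSC, so TSC was highest. In 2iJ+B-A over 2iJ, where 5.81% of all genes were called higher, 6 of the 15 were higher and none lower (median log2 0.59). They included Pdgfra (2.5 to 10.4 CPM, log2 1.86), Col4a2 (46.3 to 152 CPM, 1.71) and Sox17 (0.408 to 2.32 CPM, 1.63). These stood beside the higher Gata6 (6.97 CPM) and Gata4 (3.91 CPM), although Ttr, a marker of later visceral endoderm, had 0 counts in all samples and Afp at most 2. In TSC over 2iJ, where Gata4 reached 23.5 CPM, 5 of the 15 were called higher and 5 lower, with Col4a1 (log2 3.64) and Col4a2 (3.60) highest and Lrp2 (-5.03), Lama1 (-3.67) and Hnf4a (-2.57, 0 counts in TSC) lowest. The part of other cells in these values was not tested.

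Blood, heart and fibroblast genes were read as markers of other cells that could hold GATA transcripts. Of 11 blood and endothelial genes, 5 reached 1 CPM and none was called in 2iJ+B-A over 2iJ. The list summed to 11.5, 14.3, 11.6 and 23.0 CPM in 2i-L, 2iJ, 2iJ+B-A and TSC, and the pan-leukocyte gene Ptprc had 0 counts in all 4 samples and the globin gene Hba-a1 0 in the mESC samples and 5 in TSC. In TSC, Itga2b (9.34 CPM, log2 2.67 over 2iJ), a megakaryocyte integrin, and Cdh5 (10.7 CPM, 3.77), an endothelial cadherin, were called higher and Tek (-4.26) and Cd34 (-1.03) lower. The part of blood or endothelial cells in the Gata1 level was not tested.

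Of 11 heart and mesoderm genes, 4 reached 1 CPM, of which 1 was called higher and 1 lower in 2iJ+B-A over 2iJ and 2 higher and 1 lower in TSC over 2iJ, and the list summed to 58.5 CPM in TSC and to 9.81 to 15.4 CPM in the mESC samples. Tbx20 was called higher in 2iJ+B-A over 2iJ (1.19 to 8.92 CPM, log2 2.47) and in TSC over 2iJ (31.2 CPM, 4.23), and the primitive streak gene T was called lower in 2iJ+B-A over 2iJ (2.85 to 0.160 CPM, -2.35). Kdr, a VEGF receptor gene of early mesoderm and endothelium, was called higher in TSC over 2iJ (0.874 to 22.2 CPM, 4.05), and stood at 0.98 (not called) in 2iJ+B-A over 2iJ. The atrial myosin gene Myl7 was called lower in TSC over 2iJ (2.71 to 0.313 CPM, -1.98), and stood at -0.36 (not called) in 2iJ+B-A over 2iJ. The heart factor Nkx2-5 stayed under 1 CPM in all 4 samples. Of 10 fibroblast genes, 7 reached 1 CPM, and 1 was called higher (Prrx1) and 1 lower (Col1a1) in 2iJ+B-A over 2iJ. That list summed to 48.4, 42.1, 33.9 and 9.0 CPM, with TSC lowest.

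**Figure D4:**
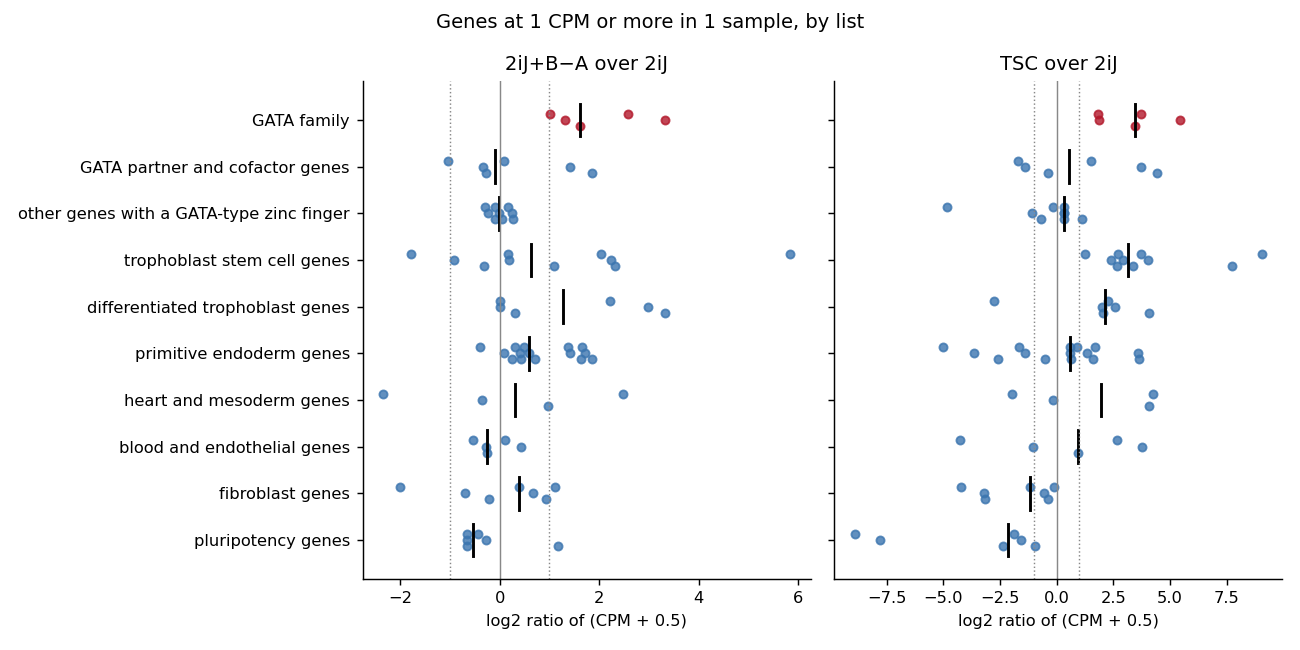
log2 ratio of (CPM + 0.5) of every gene at 1 CPM or more in 1 sample, for the 5 GATA genes (red) and the 9 gene lists (blue), in 2iJ+B-A over 2iJ and in TSC over 2iJ. Black bars mark the median of each list and dotted lines a log2 ratio of 1 in size, and the GATA medians are 1.61 and 3.45.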

How the data were processed

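Poly-A RNA was made into strand-specific libraries (NEBNext Ultra Directional) and sequenced as pairs of 126-base reads. The authors trimmed reads at a quality of 20, aligned them to NCBIM37 with STAR 2.4.2a (submitters' processing notes and the study's methods) and deposited read counts per gene for 3 strand settings. The annotation release is not given in the sources used here. The reverse-strand counts were used (29.1 to 32.1 times the forward-strand counts). Lines that name no gene held 16.4 to 17.8% of the pairs and were left out.

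Counts were scaled by TMM factors (edgeR 4.0.16, R 4.3.3) to CPM, and genes at 1 CPM in 1 sample were kept. With 1 sample per group no test was run. Intervals are 95% Clopper-Pearson for ratios and exact Poisson for levels, and the floor is 3 counts. The code was tested on simulated counts for 2iJ+B-A over 2iJ with counting noise only (13549 genes), which say nothing of the spread between cultures. In them 200 of 200 changed and 0 of 13349 unchanged genes were called, and 192 of the 200 intervals held the true fold. The changed genes were drawn only from well expressed genes, with folds beyond the limit for a call. Their recovery therefore says nothing of changed genes at low counts or near that limit, such as Gata1 and Gata4. Symbols and exon lengths came from GENCODE M1, which named 37205 of 37620 IDs, with RefSeq synonyms for older symbols. Transcripts were aligned with minimap2 2.31.

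From each of the 9 lists (95 genes) the text names up to 4 genes with the largest ratios in 2iJ+B-A over 2iJ and in TSC over 2iJ, all pluripotency and TSC genes, and, for each member, the 3 genes nearest in centred log2(CPM + 0.5). Tcf3, Tal1, Lyl1, Fli1, Spi1, Klf1, Ptprc, Hba-a1, Ttr, Afp, Prl3d1, Hnf4a, Nkx2-5 and the neighbours Hdac6, Gm13256, 9230102O04Rik and Neil2 were added after their values were seen. A gene that this rule would name is not reported here. The members and lists were chosen with earlier results of these data known.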

Additional observations from a re-analysis of the deposited data

Results flagged for a closer look

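At the Gata1 locus, reads from the strand opposite to the gene, which entered only the unstranded alternative, were above the floor of 3 counts in the mESC samples. They numbered 12 in 2i-L (80.0% of the Gata1 counts, against 2.23% over all genes), 7 in 2iJ (50%, against 2.16%) and 22 in 2iJ+B-A (25.9%, against 2.11%). In TSC there were 25, or 1.84% of the Gata1 counts. With both strands counted, the Gata1 log2 ratio was -0.24 in place of -0.07 for 2iJ over 2i-L and 5.18 in place of 5.44 for TSC over 2iJ. The source of these reads was not tested.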

How the results depend on the processing

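Each ratio rests on 1 sample per group, so the spread between cultures is unknown. No paired analysis was possible because each group has 1 sample. Under unstranded counting, DESeq2 size factors (DESeq2 1.42.0), no normalization factor, 0.1 or 1 CPM added, no filter, a filter at 5 CPM and limits of 1.5-fold and 4-fold for a call, no ratio of a called member changed sign. At fewer than 30 counts, as for Gata1 and Gata6 in 2i-L and 2iJ and Gata5 throughout, depth limits what could be resolved.

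At the alternative limits the member calls moved by construction. A limit of 4-fold left 0 members called in 2iJ over 2i-L, 2 (Gata2 and Gata6) in 2iJ+B-A over 2iJ and 3 (Gata1, Gata3 and Gata4) in TSC over 2iJ, and ended the call of Gata2 as lower in TSC over 2iJ+B-A. A limit of 1.5-fold added Gata6 (log2 -0.77) as lower in TSC over 2iJ+B-A. With 0.1 CPM added, ratios of low members grew beyond counting error: on the log2 scale Gata1 went from 5.44 to 6.26 in TSC over 2iJ and from 1.61 to 2.22 in 2iJ+B-A over 2iJ, and Gata6 from 1.8 to 2.21 and from 2.57 to 3.04. With 1 CPM added, Gata1 went to 4.82 in TSC over 2iJ. Adding 1 CPM ended the call of Gata4 in 2iJ+B-A over 2iJ (0.87). The most alike genes changed with the measure: by Pearson correlation over the 4 samples, 0 of the 3 nearest genes were shared for Gata1 to Gata4 and 1 for Gata6.

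Over all genes, 2iJ over 2i-L had 306 calls, and 652 with 0.1 CPM added, 181 with 1 CPM added, 192 with the filter at 5 CPM, 1325 at a limit of 1.5-fold and 8 at a limit of 4-fold. These 2 limits gave 2944 and 199 calls in 2iJ+B-A over 2iJ, 8037 and 2172 in TSC over 2iJ, and 7448 and 1782 in TSC over 2iJ+B-A. The other 25 counts over all genes and 33 counts of members stayed within 1.5 times the reported ones.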

Other observations

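The genes whose profile over the 4 samples lay nearest to each member, by distance between centred log2(CPM + 0.5) values among the 14263 genes, are given as a description over 4 points. For Gata2 the nearest were Ascl2 (distance 0.63), Chst1 (0.782) and Tnnt3 (0.859), each highest in 2iJ+B-A and next in TSC. For Gata6 they were F2rl1 (0.246; 14.6, 16.3, 78.4 and 52.5 CPM in 2i-L, 2iJ, 2iJ+B-A and TSC), Mn1 (0.251) and the forkhead gene Foxf1a (0.284; 0.0301, 0.0582, 3.65 and 1.68 CPM). For Gata3 they were Galnt3 (0.439), Myc (0.627; 4.90, 8.10, 24.1 and 98.4 CPM) and AI836003 (0.641). Gata1 lay nearest to Tinagl1 (0.329), the tight junction gene Cldn7 (0.34; 4.54, 5.50, 18.1 and 206 CPM) and Rgl3 (0.361), and Gata4 to S100a6 (0.0623; 10.9, 10.3, 20.4 and 119 CPM), Zfp641 (0.0923) and Cmtm8 (0.131).

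Like Gata2, 306 of the 828 genes called higher in 2iJ+B-A over 2iJ (37.0%) were called lower in TSC over 2iJ+B-A, while 227 (27.4%), among them Gata1, Gata3 and Gata4, were called higher in both, and 295 (35.6%), among them Gata6, were not called in the second. Both comparisons contain the 2iJ+B-A sample, so these shares describe the lists only. Neil2, a DNA repair gene on the same strand beside Gata4, had 388, 245 and 317 counts in 2i-L, 2iJ and 2iJ+B-A and 2 in TSC, so it was lowest where Gata4 was highest.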
